A study of Mus musculus with 12 samples.

Results

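DNA damage response and repair genes were followed in mouse leukemia cells with and without Rictor, an essential subunit of the kinase complex mTORC2. The set holds 35 genes, listed by name: factors of homologous recombination, the Fanconi anemia pathway, mismatch repair, end joining, base and nucleotide excision repair, and the kinases and mediators that signal damage. Each gene was read from the brightest probe set that carries its symbol alone. Of the 35 genes, 34 had such a probe set (Xrcc2 had none), out of 18194 genes on the array, and 33 were bright enough to be tested, out of 12582. Xrcc5 read between 3.67 and 8.36 on the 12 arrays and fell below the filter on dim genes, a mean intensity of 7.58.

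Expression was measured on 12 Affymetrix arrays in 4 groups of 3. The leukemias were driven by the MLL-AF9 or the MLL-NRIP3 fusion, and for each fusion the cells were either Rictor wild type (control) or RictorΔ/Δ, called Rictor-deleted here. All groups share the sort: cells labelled K+G– were taken from the bone marrow of recipients of a first transplantation once over 50% of blood leukocytes were CD45.2+. The labels do not spell out K+G–, name peripheral blood as host tissue although the cells are of bone marrow, and do not give the Cre or promoter behind the deletion, the age of the mice, or whether arrays within a group stem from different animals. The p-values therefore speak only to the scatter among these arrays, which may be technical.

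Cells meet DNA damage with sensor complexes and kinases that halt the cell cycle and call in repair. ATM answers mainly to double-strand breaks and ATR to stalled replication forks, and each hands the signal on to a checkpoint kinase, CHK2 or CHK1. Breaks are repaired by homologous recombination, which copies an intact sister chromatid, or by end joining, which ligates the ends, whereas base and nucleotide excision repair remove damaged bases and bulky lesions. Many of these genes are transcribed mainly in dividing cells, under E2F control, and in leukemia the damage response is known for its part in the survival of stem-like cells and in the answer to chemotherapy.

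The upstream sequences of 4 genes whose responses are described below were read from the promoter table of RefSeq (assembly GRCm38.p6), which holds 250 bases before to 50 after a gene's start, and are shown to set their elements side by side. The table held 28 of the 35 genes; Xrcc2, Exo1, Fancd2, Nbn, Rad50, Prkdc and Xpc were not in it. Each is printed 5′ to 3′ on the gene's own strand, with capitals marking E2F-type words and GC boxes. The E2F-type words searched were TTCCCGC and likewise TTGGCGC, then the word TTCGCGC and finally the word TTGCCGC; the GC box was GGGCGG, and all were searched on both strands.
Parp1, chr1:180568641-180568940, plus strand: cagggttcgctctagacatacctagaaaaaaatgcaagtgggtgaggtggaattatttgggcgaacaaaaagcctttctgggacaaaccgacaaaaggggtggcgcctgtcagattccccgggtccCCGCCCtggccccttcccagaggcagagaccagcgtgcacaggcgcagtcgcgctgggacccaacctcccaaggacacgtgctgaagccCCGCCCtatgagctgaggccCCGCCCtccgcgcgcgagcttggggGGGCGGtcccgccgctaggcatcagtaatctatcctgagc
Atr, chr9:95857347-95857646, plus strand: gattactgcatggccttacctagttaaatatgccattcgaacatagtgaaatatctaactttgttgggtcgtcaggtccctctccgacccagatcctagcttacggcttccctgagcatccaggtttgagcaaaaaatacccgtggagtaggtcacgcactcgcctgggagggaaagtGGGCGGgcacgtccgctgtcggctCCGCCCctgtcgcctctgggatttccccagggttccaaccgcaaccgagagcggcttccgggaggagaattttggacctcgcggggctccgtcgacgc
Atm, chr9:53536622-53536921, minus strand: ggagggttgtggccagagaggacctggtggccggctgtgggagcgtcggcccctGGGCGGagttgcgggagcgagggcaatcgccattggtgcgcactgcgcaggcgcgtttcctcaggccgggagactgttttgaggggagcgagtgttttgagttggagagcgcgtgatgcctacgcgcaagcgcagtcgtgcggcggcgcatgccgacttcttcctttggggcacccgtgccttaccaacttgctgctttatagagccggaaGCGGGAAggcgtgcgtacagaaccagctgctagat
Rad51ap1, chr6:126939538-126939837, minus strand: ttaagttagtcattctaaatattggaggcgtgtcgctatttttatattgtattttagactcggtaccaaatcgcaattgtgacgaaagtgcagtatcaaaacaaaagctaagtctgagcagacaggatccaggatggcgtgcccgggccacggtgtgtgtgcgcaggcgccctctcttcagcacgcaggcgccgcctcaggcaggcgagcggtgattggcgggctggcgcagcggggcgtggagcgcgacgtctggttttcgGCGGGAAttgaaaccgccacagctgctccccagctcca
The Parp1 window holds 4 GC boxes and no E2F-type word, and the Atr window 2 GC boxes and no E2F-type word. Atm holds 1 GC box and 1 E2F-type word (bases 266 to 272 of the window), and Rad51ap1 holds 1 E2F-type word (bases 263 to 269) and no GC box. An E2F-type word was found for 18 of the 28 genes (64.3%). The share was 16% of the 14453 genes that have both a window and a probe set, and 10.9% of all 27025 genes with a window. Some genes have several windows, and a gene was counted if any of its windows held the word. GC boxes were found for 67.9% of the 28 genes and 57.3% of the 14453. For CCAAT on either strand the shares were 57.1% and 42.0%, and for the mitotic element TTTGAA 3.57% and 15.7%. The median GC content, averaged over the windows of a gene, was 57.8% for the 28 genes and 58.7% for the 14453. A match in letters is a description of the window and no site.

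Values below are linear intensities, and differences are Rictor-deleted minus control on the scale of log2(intensity + 16), which understates the change of dim genes. They were tested with limma on the 6 arrays of each leukemia, and a gene is called at a Benjamini-Hochberg adjusted p under 0.05 over all 12582 genes. The median intensity was 8.16 to 8.36 on MLL-AF9 arrays and 13.6 to 14.2 on MLL-NRIP3 arrays, so levels of the leukemias are not on 1 scale, and responses rather than levels are compared. Ptprc, which encodes CD45, read 1448 to 2244 on all arrays, and Kit, a receptor on the surface of immature blood cells, read 160 to 232 in MLL-AF9 controls and 135 to 157 in Rictor-deleted cells (adjusted p = 0.055), and 307 to 390 against 406 to 593 in MLL-NRIP3 leukemia (adjusted p = 0.13). A list of markers chosen here to describe the sorted cells, which the labels do not give, held 6 tested genes. Of these, Itgam was called higher in MLL-AF9 leukemia (0.46) and Cd34 and Meis1 lower (−0.44 and −0.41). Cd34 was called higher in MLL-NRIP3 leukemia (1.41). For the difference between responses 4 were called, Kit, Cd34, Hoxa9 and Meis1, with positive values. In MLL-AF9 leukemia, Xist read 2348 to 2441 in controls and 34.3 to 208 in Rictor-deleted cells, and the Y-linked Eif2s3y 3.43 to 7.81 against 149 to 186, so sex and genotype cannot be told apart there. MLL-NRIP3 control arrays 1 and 2 stood apart. Their 5′ over 3′ signal ratios of Gapdh were 0.562 and 0.738, against 0.881 to 0.965 on the other 4 arrays of that leukemia. Fits without both are given below for Xpc, Atr, Fancb, Plk2 and the counts of genes called. They are not given for the other MLL-NRIP3 results, which may also depend on these arrays. For the difference between responses, such a fit is given for Atr only. The brightest Rictor probe set read 77.9 to 139 over the arrays without separating the genotypes; the sources used here do not give the deleted part of the gene, so it checks no label.

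Mature neutrophil transcripts moved in opposite directions in the leukemias. In MLL-AF9 leukemia 15 of 16 tested neutrophil markers were called higher (median log2 difference 1.78), and their summed intensity was 9491 to 13750 in controls and 30504 to 34073 in Rictor-deleted cells. In MLL-NRIP3 leukemia 3 of 16 were called lower (median −0.67), and the sum was 5357 to 22003 in controls and 2134 to 2412 in Rictor-deleted cells. Of monocyte and macrophage markers, 7 of 10 were called lower in MLL-AF9 leukemia and 0 of 10 in MLL-NRIP3 leukemia. Of mast cell, basophil and eosinophil markers, 3 of 6 were called lower in MLL-AF9 leukemia (differences down to −2.14) and 2 of 6 higher in MLL-NRIP3 leukemia (up to 2.69). Of B lineage markers, 2 of 7 were called lower in MLL-AF9 leukemia and 1 of 7 in MLL-NRIP3 leukemia (down to −3.09), and of T lineage and erythroid markers 0 were called by limma in either (lowest adjusted p 0.13). For every repair gene below, fewer cells of a type and less RNA per cell cannot be told apart, and the part of these markers in the results was not tested.

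For most repair transcripts of MLL-AF9 leukemia, the difference between Rictor-deleted and control cells did not pass the test. Of the 33 genes, 2 were called, Parp1 and Xpc, both lower. That is 6.06% of the genes, against a background of 8.26% of all genes tested; for calls in the lower direction the shares were 6.06% and 4.47%, and for the higher direction 0% and 3.79%. At an unadjusted p under 0.05 the count was 6 (18.2%, background 21.8%), and the 3 values of one genotype all lay above the 3 of the other for 6 genes (18.2%, background 27.0%). The median difference over the 33 genes was 0.01, against −0.01 over all genes, with 17 positive (51.5%, background 45.7%) and 16 negative.

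In MLL-NRIP3 leukemia 1 of the 33 genes was called, Xpc, again lower (3.03%, background 1.56%, or 0.763% for calls in the lower direction). At an unadjusted p under 0.05 there were 6 genes (18.2%, background 17.7%), 5 of them higher (15.2%, background 7.89%): Atr, Bard1, Exo1, Mdc1 and Rad51ap1. The genotypes did not overlap for 11 genes (33.3%, background 22.4%), of which 9 were higher in Rictor-deleted cells (27.3%, background 9.70%). Positive differences numbered 26 of 33 (78.8%), against 50.0% of all genes, and the median was 0.13 against 0.00. The median over the 33 genes ranged from 0.08 to 0.26 as each array was left out in turn. Of the 33 genes, 20 (60.6%) had the same sign in both leukemias, against 54.5% of all genes.

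The difference between the leukemias' responses, MLL-NRIP3 minus MLL-AF9, was fitted on all 12 arrays and was called for 2 of 33 genes (6.06%, background 4.31%): Atr, with a positive difference (3.03%, background 1.95%), and Xpc, with a negative one (3.03%, background 2.36%). At an unadjusted p under 0.05 there were 9 genes (27.3%, background 18.7%), with positive differences for 7 (21.2%, background 9.12%), Atm, Atr, Bard1, Exo1, Mdc1, Parp1 and Rad50, and negative ones for 2 (6.06%, background 9.53%), Lig3 and Xpc. The median difference between responses was 0.08 over the 33 genes and 0.01 over all genes.

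**Figure D1:**
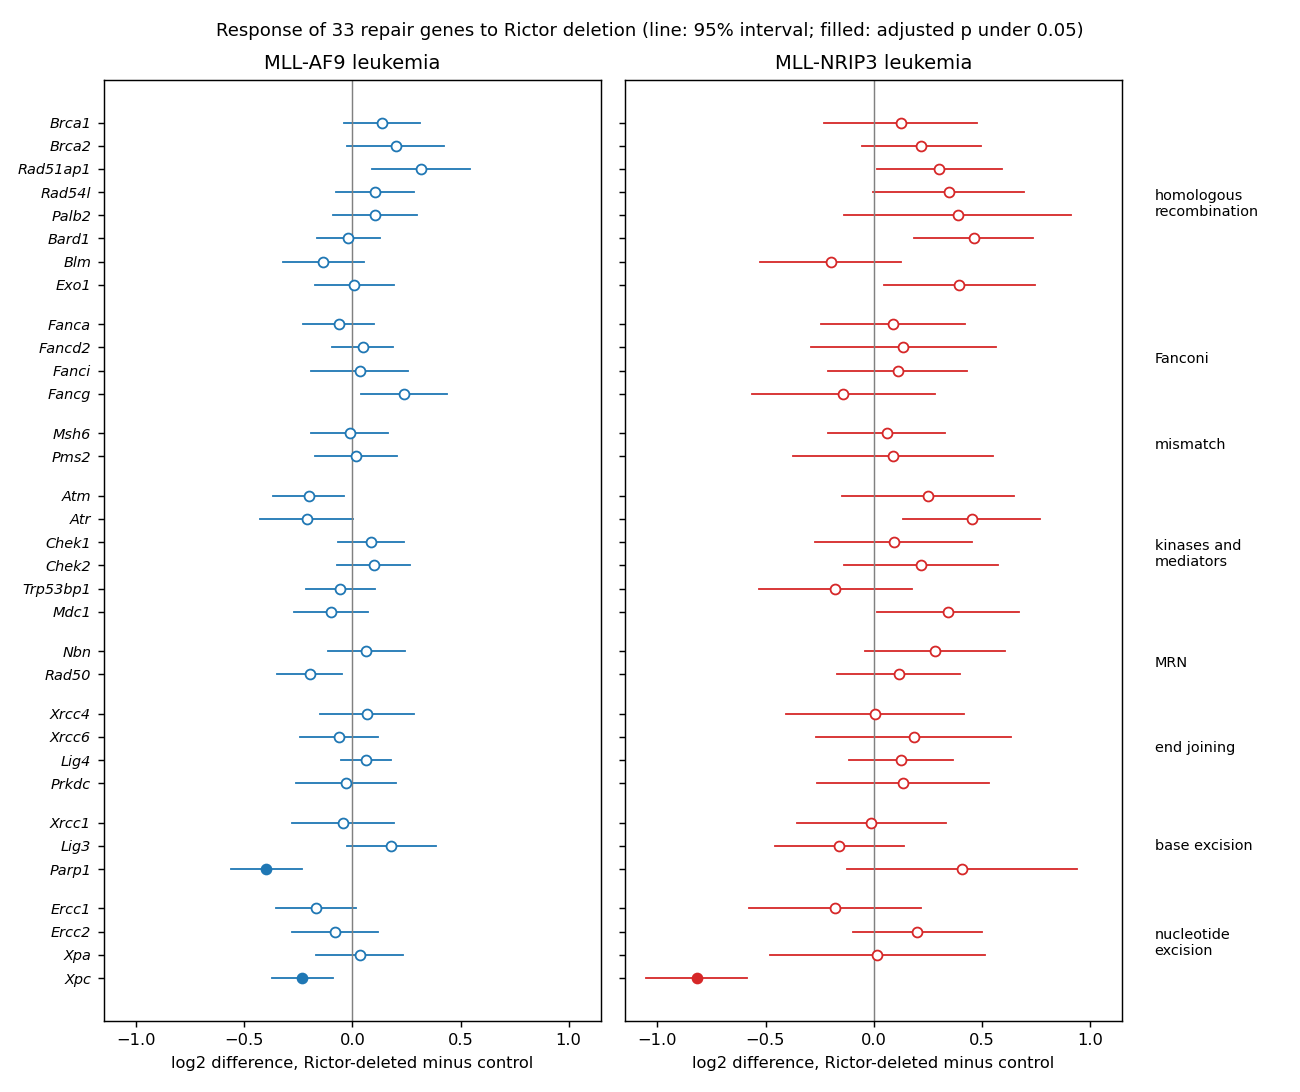
Response of each of the 33 tested repair genes to Rictor deletion (log2 difference, Rictor-deleted minus control) in MLL-AF9 and MLL-NRIP3 leukemia, ordered by role, with bars for 95% intervals of the limma fits. Xpc lies furthest below 0 in MLL-NRIP3 leukemia at −0.82, Parp1 furthest below 0 in MLL-AF9 leukemia at −0.40, and 26 of 33 MLL-NRIP3 points lie above 0.

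Nucleotide excision repair held the one gene called in both leukemias. Xpc encodes the protein that recognises bulky lesions and recruits the repair machinery. Its probe set, 1422532_at, gave 1077, 1156 and 1028 for the MLL-AF9 controls against 948, 847 and 974 in Rictor-deleted cells. In MLL-NRIP3 leukemia it read 1717, 1487 and 1736 in controls and 957, 855 and 966 in Rictor-deleted cells. Every Rictor-deleted array lay below every control array of the same leukemia, and the gap was wider in MLL-NRIP3 leukemia. The mean fell in MLL-AF9 leukemia from 1087 ± 64.5 to 923 ± 66.9 (SD, n = 3 each; log2 difference −0.23 ± 0.06 SE, which is 1.17-fold on the scale of intensity + 16, limma adjusted p = 0.049). In MLL-NRIP3 leukemia the mean fell from 1647 ± 138 to 926 ± 61.7 (SD, n = 3 each; −0.82 ± 0.10 SE or 1.76-fold on that scale, limma adjusted p = 0.011). The responses differed by −0.59 ± 0.12 (SE, limma adjusted p = 0.015).

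The MLL-AF9 call of Xpc ended without any 1 of the 6 arrays, control 1, 2 or 3 or Rictor-deleted 1, 2 or 3 (limma adjusted p 0.052 to 0.18). It also ended with a pseudocount of 64 (0.054), no filter (0.063) or no trend (0.091). With averaged probe sets it ended too (0.082), although Xpc has only 1 probe set, so its own values stayed the same. In the fit of all 12 arrays the call was likewise lost (0.35), and 0 of the 33 genes were called (background 1.38%). The MLL-NRIP3 call of Xpc held without each array in turn (0.0083 to 0.048). Without MLL-NRIP3 control arrays 1 and 2 together the MLL-NRIP3 difference was −0.90 and was not called (0.096), and the difference between responses was not called without MLL-AF9 Rictor-deleted array 1 or array 3 (0.051 each, in a range from 0.0093 over all arrays left out).

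The other excision repair genes were not called. Ercc1 and Ercc2 encode a subunit of the nuclease that cuts 5′ of a lesion and a helicase of TFIIH. Ercc1 read 145, 151 and 167 in MLL-AF9 controls against 134, 149 and 123 in Rictor-deleted cells, and 198, 157 and 136 against 131, 127 and 168 in MLL-NRIP3 leukemia. The groups overlapped in both leukemias (−0.17 ± 0.08 and −0.18 ± 0.18 SE, limma adjusted p 0.27 and 0.64). Ercc2 read 39.2, 39.7 and 47.6 against 40.0, 34.3 and 42.6 in MLL-AF9 leukemia, and 45.0, 49.1 and 54.6 against 61.1, 62.0 and 55.0 in MLL-NRIP3 leukemia. Its MLL-NRIP3 groups lay close without overlapping (0.20 ± 0.13 SE, limma adjusted p = 0.46). On the further tested probe set of Ercc2, 1442253_at, the MLL-NRIP3 groups overlapped and differed by −0.16. Xpa, a scaffold of the incision complex, differed by 0.03 and 0.02, with 95% intervals from −0.17 to 0.24 and from −0.48 to 0.51. The median over these 4 genes was −0.13 in MLL-AF9 and −0.08 in MLL-NRIP3 leukemia.

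Parp1 was the other gene called in MLL-AF9 leukemia. It encodes the poly(ADP-ribose) polymerase that binds single-strand breaks and marks them for repair. Its brightest probe set, 1422502_at, gave 197, 205 and 197 for the MLL-AF9 controls against 136, 146 and 163 in Rictor-deleted cells, with no overlap. In MLL-NRIP3 leukemia it read 311, 395 and 203 in controls and 422, 455 and 318 in Rictor-deleted cells, where the lowest Rictor-deleted array lay within the controls. The MLL-AF9 mean fell from 200 ± 4.72 to 148 ± 13.9 (SD, n = 3 each; −0.40 ± 0.07 SE or 1.32-fold on the scale of intensity + 16, limma adjusted p = 0.0068). The MLL-NRIP3 difference was 0.41 ± 0.23 (SE, limma adjusted p = 0.40), with a 95% interval from −0.12 to 0.94. The difference between responses, 0.81 ± 0.27 (SE), was not called (limma adjusted p = 0.12).

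The MLL-AF9 call of Parp1 held without each of the 6 arrays (limma adjusted p 0.0068 to 0.034) and ended when the gene's 4 probe sets were averaged (−0.14, adjusted p = 0.34) and in the fit of all 12 arrays (0.60). The 3 further probe sets of Parp1 differed by −0.14 (1422503_s_at), −0.03 (1435368_a_at) and 0.01 (1443573_at) in MLL-AF9 leukemia and by 0.35, 0.11 and 0.14 in MLL-NRIP3 leukemia, and none was called.

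The partners of PARP1 in single-strand break repair were not called. Xrcc1 encodes the scaffold of that pathway and Lig3 the ligase bound to it. Xrcc1 read 75.7, 53.4 and 66.8 against 58.6, 68.7 and 60.2 in MLL-AF9 leukemia, and 95, 97.7 and 77.9 against 96.1, 94.2 and 77.9 in MLL-NRIP3 leukemia. Both pairs of groups overlapped, with intervals from −0.28 to 0.19 and from −0.35 to 0.33 around differences of −0.04 and −0.01. Lig3 read 82.4, 96.4 and 92.4 against 90.3, 109 and 115 in MLL-AF9 leukemia, and 105, 109 and 109 against 100, 88.4 and 96.0 in MLL-NRIP3 leukemia. The MLL-NRIP3 groups did not overlap, yet neither response was called (0.18 ± 0.09 and −0.16 ± 0.13 SE, limma adjusted p 0.30 and 0.57), nor was their difference of −0.34 (limma adjusted p = 0.24).

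**Figure D2:**
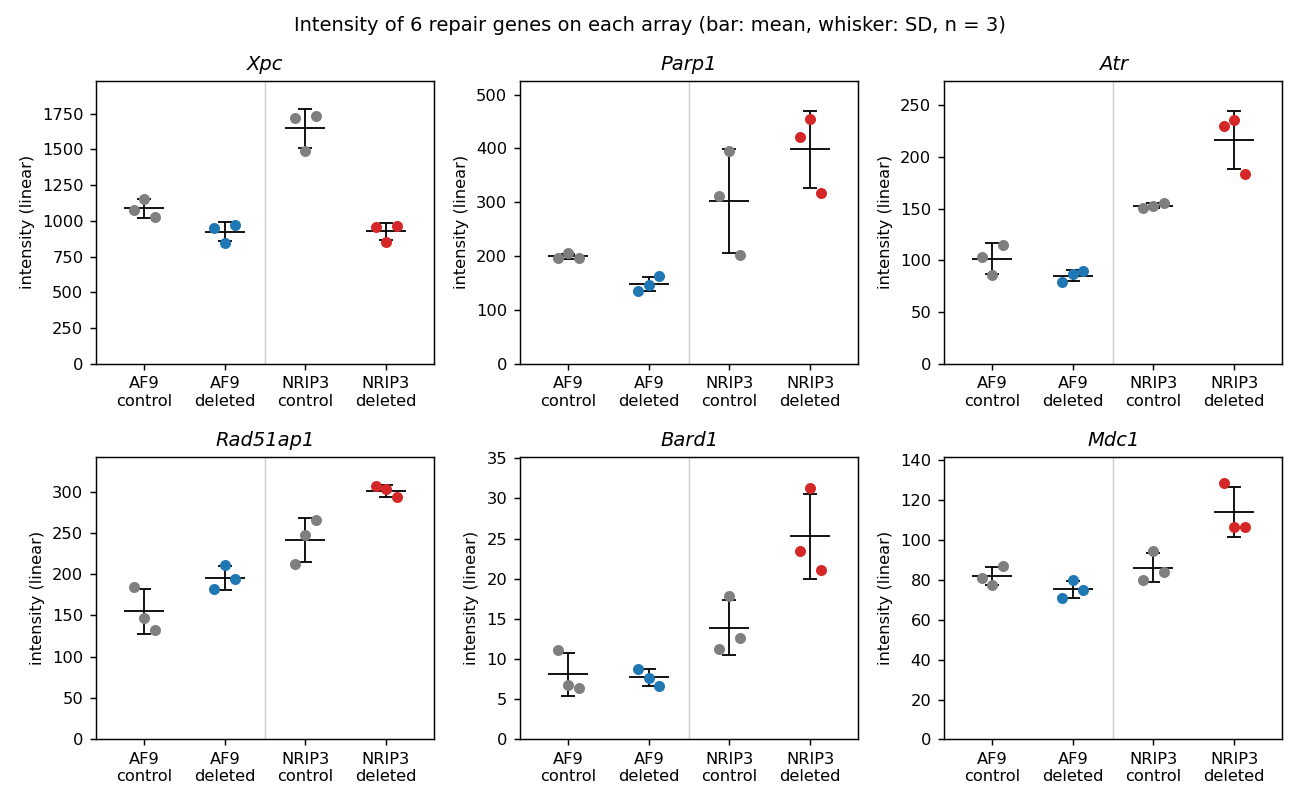
Linear intensity of 6 repair genes on each of the 12 arrays (points), with the mean and SD of 3 arrays per group as bars and whiskers; each panel starts at 0. Xpc is lower on all Rictor-deleted arrays of both leukemias, Parp1 in MLL-AF9 leukemia, and Atr, Rad51ap1, Bard1 and Mdc1 are higher on the 3 MLL-NRIP3 Rictor-deleted arrays (184 to 236 against 151 to 155 for Atr).

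Among damage kinases, checkpoint kinases and mediators, Atr responded differently in the leukemias. It encodes the kinase that responds to stalled replication forks. Its brightest probe set, 1427197_at, gave 104, 85.7 and 115 for the MLL-AF9 controls against 79.3, 86.3 and 89.4 in Rictor-deleted cells, with overlap. In MLL-NRIP3 leukemia it read 151, 152 and 155 in controls and 229, 236 and 184 in Rictor-deleted cells, with every Rictor-deleted array higher. Neither response was called on its own: −0.21 ± 0.10 (SE, limma adjusted p = 0.24) and 0.45 ± 0.14 (SE, limma adjusted p = 0.15). Their difference, 0.67 ± 0.17 (SE, 95% interval 0.31 to 1.03), was called (limma adjusted p = 0.042).

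That call ended in 9 of 12 fits that left out 1 array (limma adjusted p 0.0098 to 0.12 over all 12): without MLL-AF9 control 1 or 3, MLL-AF9 Rictor-deleted 1, 2 or 3, MLL-NRIP3 control 1 or 2, or MLL-NRIP3 Rictor-deleted 1 or 2. The 2 further probe sets of Atr, 1438921_at and 1445091_at, differed by 0.06 and 0.01 in MLL-AF9 and by 0.26 and 0.18 in MLL-NRIP3 leukemia, and the call ended with all 3 averaged (0.34, adjusted p = 0.19), with no filter (0.053) and without MLL-NRIP3 control arrays 1 and 2 together (0.11).

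Atm, the kinase gene of the double-strand break response, gave unlike calls from its probe sets. The brightest, 1428830_at, gave 126, 124 and 131 for the MLL-AF9 controls against 105, 118 and 102 in Rictor-deleted cells, without overlap. In MLL-NRIP3 leukemia it read 134, 182 and 141 against 210, 195 and 150, with overlap. The responses of −0.20 ± 0.08 and 0.25 ± 0.17 (SE) were not called (limma adjusted p 0.14 and 0.49), nor was their difference of 0.45 (0.21). A dimmer probe set, 1421205_at, chosen for mention after its values were seen, gave 100, 92.4 and 96.7 for the MLL-AF9 controls against 52.7, 64.4 and 60.4 in Rictor-deleted cells. In MLL-NRIP3 leukemia it read 118, 120 and 119 against 173, 213 and 132.

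On 1421205_at, then, the Rictor-deleted arrays lay below all controls in MLL-AF9 and above all controls in MLL-NRIP3 leukemia. When all 22524 single-symbol probe sets above the filter were fitted on their own, its MLL-AF9 response was −0.58 ± 0.08 (SE, limma adjusted p = 0.0019) and its difference between responses 1.04 ± 0.19 (SE, limma adjusted p = 0.011), and both were called; the MLL-NRIP3 response of 0.46 ± 0.17 (SE) was not (adjusted p = 0.23). Both calls held without each array in turn (adjusted p up to 0.011 and 0.041), and the MLL-AF9 call ended in the fit of all 12 arrays (0.079). In those fits 2 of the 70 probe sets of repair genes were called in MLL-AF9 leukemia (background 6.02%), 1 in MLL-NRIP3 leukemia (background 0.919%) and 3 for the difference (background 3.51%). The sources used here do not place either probe set within Atm.

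**Figure D3:**
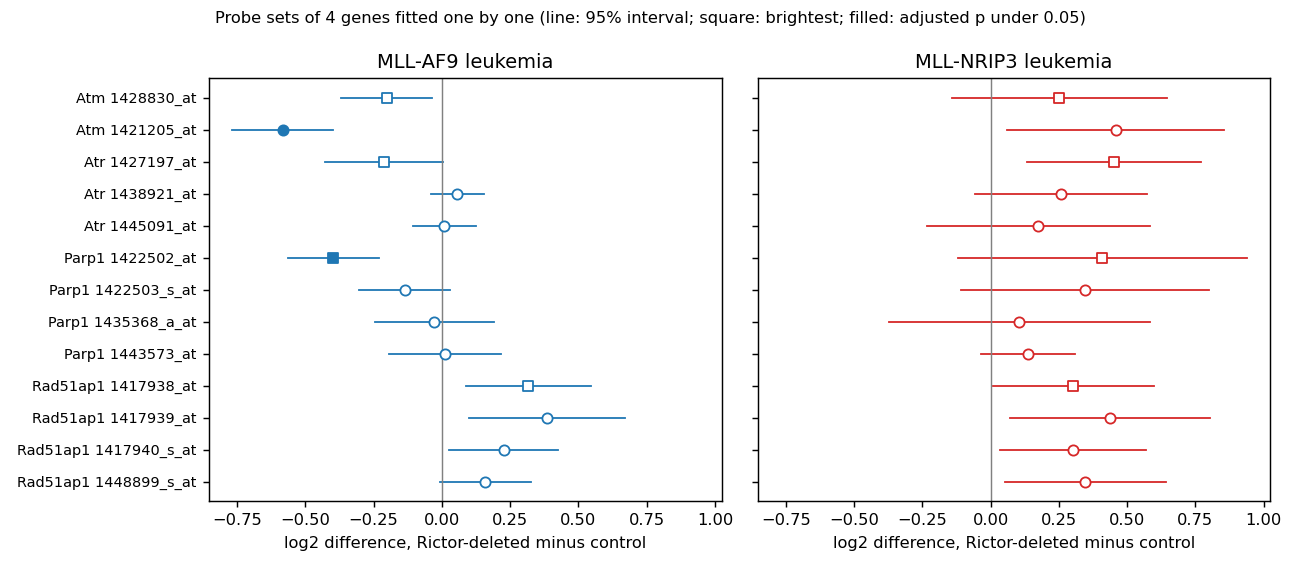
Response to Rictor deletion (log2 difference, Rictor-deleted minus control) of each probe set of Parp1, Atr, Atm and Rad51ap1, in MLL-AF9 and MLL-NRIP3 leukemia, with 95% intervals. Parp1 in MLL-AF9 leukemia rests on its brightest probe set (−0.40 against −0.14 to 0.01 for the other 3), whereas all 4 of Rad51ap1 lie above 0 in both leukemias.

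Mdc1 encodes the mediator that binds phosphorylated H2AX beside breaks. It read 81.0, 77.6 and 86.7 in MLL-AF9 controls against 71.1, 79.7 and 74.9, and 80.0, 94.2 and 84.1 against 128, 107 and 107 in MLL-NRIP3 leukemia. Every MLL-NRIP3 Rictor-deleted array lay above the controls, but neither response was called (−0.10 ± 0.08 and 0.34 ± 0.14 SE, limma adjusted p 0.53 and 0.26), nor was their difference of 0.44 (0.11). The checkpoint kinase genes Chek1 and Chek2 differed by 0.09 and 0.10 in MLL-AF9 leukemia and by 0.09 and 0.22 in MLL-NRIP3 leukemia. On 2 of the 3 further tested probe sets of Chek1, 1450677_at and 1439208_at, the MLL-NRIP3 groups did not overlap and differed by 0.48 and 0.41 without a call (limma adjusted p 0.19 and 0.21), and on 1420032_at they differed by −0.11. Trp53bp1, whose product 53BP1 shields broken ends from resection, differed by −0.06 and −0.18. The median over these 6 genes was −0.08 in MLL-AF9 and 0.24 in MLL-NRIP3 leukemia.

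Nbn and Rad50 encode subunits of the MRN complex, which senses double-strand breaks and activates ATM. Nbn read 114, 105 and 97.4 against 118, 112 and 104 in MLL-AF9 leukemia, and 95.6, 105 and 92.2 against 126, 133 and 108 in MLL-NRIP3 leukemia. Rad50 read 190, 199 and 207 against 171, 180 and 161 in MLL-AF9 leukemia, and 243, 244 and 232 against 247, 293 and 245 in MLL-NRIP3 leukemia. Rad50 was thus lower on all Rictor-deleted arrays of MLL-AF9 leukemia and, by a narrow margin, higher on all those of MLL-NRIP3 leukemia, where Nbn was higher too. None was called: Nbn differed by 0.06 ± 0.08 and 0.28 ± 0.14 (SE, limma adjusted p 0.72 and 0.34), and Rad50 by −0.20 ± 0.07 and 0.12 ± 0.13 (SE, 0.11 and 0.67).

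Homologous recombination genes had the highest median among the role groups in MLL-NRIP3 leukemia, 0.33 over 8 tested genes, of which 7 were positive and 0 called; in MLL-AF9 leukemia the median was 0.10, with 6 positive and 0 called. Rad51ap1, whose product promotes strand pairing, read 185, 148 and 133 in MLL-AF9 controls against 182, 211 and 194, and 213, 247 and 266 against 306, 303 and 293 in MLL-NRIP3 leukemia. The MLL-AF9 groups overlapped through control array 1, and the MLL-NRIP3 groups did not overlap. The responses were 0.32 ± 0.10 and 0.30 ± 0.13 (SE, limma adjusted p 0.089 and 0.26), with a difference of −0.01 and a 95% interval from −0.37 to 0.35. Without MLL-AF9 control array 1 the MLL-AF9 response was 0.44 and was called (adjusted p = 0.011, in a range up to 0.27 over the arrays left out). Its 4 probe sets gave 0.16 to 0.39 in MLL-AF9 and 0.30 to 0.44 in MLL-NRIP3 leukemia.

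Bard1, which encodes the partner of BRCA1 in its ubiquitin ligase, was dim. It read 11.2, 6.75 and 6.42 against 8.77, 7.69 and 6.68 in MLL-AF9 leukemia, and 11.3, 17.8 and 12.6 against 23.4, 31.3 and 21.1 in MLL-NRIP3 leukemia. The MLL-NRIP3 groups did not overlap (0.46 ± 0.12 SE, limma adjusted p = 0.11), and the MLL-AF9 difference was −0.02 ± 0.07 (SE). Exo1, an exonuclease of end resection, read 65.4, 55.3 and 59.3 against 58.0, 64.2 and 58.8 in MLL-AF9 leukemia, and 101, 94.4 and 90.4 against 150, 136 and 109 in MLL-NRIP3 leukemia. It was again higher on every MLL-NRIP3 Rictor-deleted array without being called (0.40 ± 0.15 SE, limma adjusted p = 0.23). The further tested probe set of Exo1, 1418027_at, gave another picture. There the MLL-AF9 Rictor-deleted arrays lay above all controls (0.20, limma adjusted p = 0.14) and the MLL-NRIP3 groups overlapped (0.19). On it the difference between responses was −0.01.

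The remaining recombination genes were not called in either leukemia. Brca1 differed by 0.13 in MLL-AF9 and 0.12 in MLL-NRIP3 leukemia, Brca2, a tumour suppressor of this pathway, by 0.20 and 0.22, and Palb2, which joins BRCA1 to BRCA2, by 0.10 and 0.39. Rad54l, a motor protein of strand exchange, differed by 0.10 and 0.35. Blm, a helicase that dissolves recombination intermediates, was the only one of the 8 tested recombination genes of the set below 0 in MLL-NRIP3 leukemia, with −0.13 and −0.20. With all 12 arrays fitted together, Atr, Bard1, Exo1 and Mdc1 were called higher beside Xpc in MLL-NRIP3 leukemia (5 calls, 15.2% of the 33 genes, background 13.7%; the 4 higher ones 12.1%, background 5.95%), in a fit where the smaller replicate spread of MLL-AF9 leukemia enters the error: the median SD of a gene over 3 arrays was 0.076 and 0.062 (log2) in the MLL-AF9 groups and 0.145 and 0.136 in the MLL-NRIP3 groups.

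None of the 4 listed genes of the Fanconi anemia pathway, which acts on DNA crosslinks, was called. Fanca read 76.4, 74.4 and 72.3 against 68.3, 73.8 and 69.5 in MLL-AF9 leukemia, and 168, 190 and 204 against 195, 231 and 177 in MLL-NRIP3 leukemia, with overlap in both. Fancg, like Fanca a subunit of the core complex, read 30.6, 33.9 and 25.2 against 35.3, 42.0 and 37.0 in MLL-AF9 leukemia, and 64.4, 74.0 and 59.0 against 65.0, 71.5 and 41.3 in MLL-NRIP3 leukemia. Fancg was higher on all MLL-AF9 Rictor-deleted arrays but not called (0.24 ± 0.09 SE, limma adjusted p = 0.14). Fancd2 and Fanci, the pair that the core complex ubiquitinates, differed by 0.05 and 0.03 in MLL-AF9 and by 0.14 and 0.11 in MLL-NRIP3 leukemia.

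No mismatch repair or end joining gene was called. Msh6, which recognises mismatches, read 146, 134 and 124 against 127, 146 and 128 in MLL-AF9 leukemia, and 215, 239 and 215 against 234, 228 and 236 in MLL-NRIP3 leukemia. Pms2, the nuclease subunit of MutLα, read 68.1, 72.1 and 62.3 against 65.2, 75.8 and 64.3, and 148, 133 and 106 against 155, 164 and 100. All 4 comparisons overlapped, with differences from −0.01 to 0.09.

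Of the end joining genes, Xrcc6, which encodes Ku70, read 97.4, 82.2 and 88.4 against 80.1, 89.7 and 84.3 in MLL-AF9 leukemia, and 155, 181 and 137 against 208, 212 and 132 in MLL-NRIP3 leukemia. Lig4, the ligase of this pathway, read 10.6, 13.5 and 10.1 against 12.8, 12.7 and 12.3, and 14.6, 9.48 and 17.5 against 15.0, 16.9 and 17.2. Groups of both genes overlapped in both leukemias. Prkdc, the kinase DNA-PKcs that Ku recruits, differed by −0.03 and 0.14, and Xrcc4, the partner of Lig4, by 0.07 and 0.01. The 95% interval of the MLL-NRIP3 difference ran from −0.26 to 0.63 for Xrcc6 and from −0.40 to 0.42 for Xrcc4, so changes of that size could not be detected with 3 arrays a group.

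**Figure D4:**
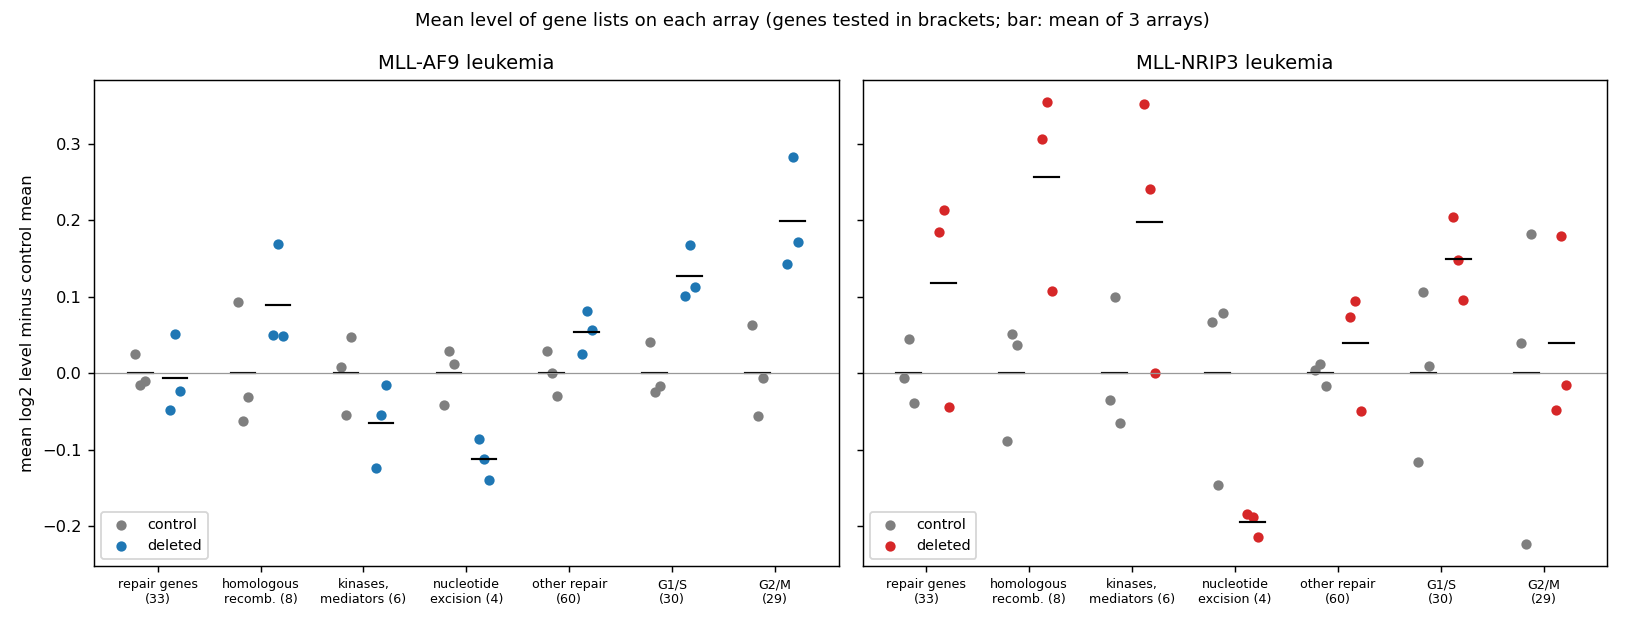
Mean log2(intensity + 16) of gene lists on each array minus the mean of the leukemia's controls (points), with the mean of 3 arrays as bars, for the 33 repair genes, 3 of their role groups, 60 other repair genes and genes of the G1/S and G2/M stages. In MLL-NRIP3 leukemia, Rictor-deleted arrays 1 and 2 lie at 0.18 and 0.21 for the repair genes. Array 3 lies at −0.044, just below the lowest control at −0.039.

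Array by array, the upward shift of MLL-NRIP3 leukemia was not shared by all 3 Rictor-deleted arrays. The mean over the 33 genes lay at 0.18, 0.21 and −0.044 relative to the controls, which themselves ranged from −0.039 to 0.044. Array 3 thus lay just below the lowest control. Over all 12582 genes the mean lay at 0.02, 0.02 and −0.07 on these arrays. The homologous recombination mean lay at 0.31, 0.35 and 0.11, above its controls (−0.09 to 0.05) on each array. The nucleotide excision mean lay between −0.21 and −0.18 on the Rictor-deleted arrays and between −0.15 and 0.08 on the controls.

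Cell cycle genes were measured beside the repair genes, since many of the latter are made in dividing cells. In MLL-AF9 leukemia 4 of 30 G1/S and replication genes and 8 of 29 G2/M genes were called higher (medians 0.10 and 0.22; 3.79% of all genes were), whereas the repair genes had a median of 0.01. In MLL-NRIP3 leukemia, where only 1.56% of all genes were called, 0 of 30 and 0 of 29 were called by limma (medians 0.14 and 0.03). The 18 tested repair genes with an E2F-type word in the promoter window had median differences of 0.02 in MLL-AF9 and 0.13 in MLL-NRIP3 leukemia, and the 9 tested genes without one −0.04 and 0.09.

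A wider list of 68 other repair and checkpoint genes, of which 60 were tested, was measured with the same fits. In MLL-AF9 leukemia 1 was called (8.26% of all genes were), Tipin, whose product holds the replication fork together with TIMELESS. It read 664, 659 and 602 in controls against 753, 747 and 769 in Rictor-deleted cells, without overlap (0.23 ± 0.05 SE, limma adjusted p = 0.023), and the call was lost when control 3 or any 1 Rictor-deleted array was left out (0.058 to 0.090, in a range from 0.028). The list had a median of 0.04 with 39 of 60 positive in MLL-AF9 leukemia (45.7% of all genes) and of 0.02 with 33 of 60 positive in MLL-NRIP3 leukemia (50.0%).

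In MLL-NRIP3 leukemia 1 of the 60 was called (1.56% of all genes were), Fancb, a further subunit of the Fanconi core complex. It read 38.1, 39.0 and 49.6 in controls and 88.3, 96.1 and 123 in Rictor-deleted cells, against 13.5, 16.3 and 14.6 and 15.1, 17.7 and 17 in MLL-AF9 leukemia. All MLL-NRIP3 Rictor-deleted arrays thus stood well above their controls. The mean rose from 42.2 ± 6.43 to 102 ± 18.3 (SD, n = 3 each; 1.02 ± 0.16 SE or 2.03-fold on the scale of intensity + 16, limma adjusted p = 0.027), and the difference between responses was 0.94 ± 0.17 (SE, limma adjusted p = 0.0066), called without each array in turn. The MLL-NRIP3 call was lost when control 1, control 2, Rictor-deleted 1 or Rictor-deleted 2 was left out (adjusted p 0.075 to 0.11, in a range from 0.013) and without control arrays 1 and 2 together (0.84, adjusted p = 0.33).

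Other genes of the wider list were not called. Ube2t, the ubiquitin-conjugating enzyme of the Fanconi pathway, read 88.4, 93.1 and 77.9 against 102, 110 and 101 in MLL-AF9 leukemia, and 69.9, 73.9 and 101 against 144, 116 and 126 in MLL-NRIP3 leukemia. Lig1, the ligase of replication, read 375, 338 and 331 against 404, 447 and 385, and 553, 614 and 583 against 659, 751 and 647. Both genes were higher on every Rictor-deleted array of both leukemias (Ube2t 0.24 and 0.58, limma adjusted p 0.11 and 0.14; Lig1 0.23 and 0.23, 0.073 and 0.32). Without 1 array each, Ube2t was called in MLL-NRIP3 leukemia (without control 3, adjusted p = 0.037, in a range up to 0.42) and Lig1 in MLL-AF9 leukemia (without control 1, 0.043, in a range up to 0.25).

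Polb, the polymerase of base excision repair, differed by −0.23 ± 0.06 in MLL-AF9 leukemia (SE, limma adjusted p = 0.054) and by −0.29 in MLL-NRIP3 leukemia. Rad51d, a gene of homologous recombination, differed by 0.16 and −0.48, and Rad17, which loads the checkpoint clamp, by 0.02 and 0.40.

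Targets of p53, the transcription factor through which damage signals reach growth arrest, held 1 call in each leukemia among 17 tested (8.26% of all genes were called in MLL-AF9 and 1.56% in MLL-NRIP3 leukemia). In MLL-AF9 leukemia 5 of 17 differences were positive (median −0.02; 45.7% of all genes), and in MLL-NRIP3 leukemia 9 of 17 (median 0.09; 50.0%). Sesn1, which encodes the stress protein sestrin 1, read 343, 352 and 372 in MLL-AF9 controls against 261, 240 and 274, and 265, 212 and 187 against 154, 147 and 131 in MLL-NRIP3 leukemia. It was lower on every Rictor-deleted array, with a call in MLL-AF9 leukemia (−0.44 ± 0.07 SE, limma adjusted p = 0.0017) that held without each array and ended with its probe sets averaged (−0.23, 0.079) and with all 12 arrays (0.11), and none in MLL-NRIP3 leukemia (−0.56 ± 0.16 SE, 0.13). Plk2, a polo-like kinase gene, read 7.74, 7.86 and 7.80 against 8.31, 9.14 and 8.52 in MLL-AF9 leukemia, and 10.5, 12.2 and 7.65 against 23.1, 35.5 and 22.8 in MLL-NRIP3 leukemia. Plk2 was dim, with MLL-AF9 values close to the filter of 7.58.

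Plk2 was called higher in MLL-NRIP3 leukemia (0.72 ± 0.13 SE, limma adjusted p = 0.034), and the difference between responses was 0.66 ± 0.14 (SE, limma adjusted p = 0.016). Its MLL-NRIP3 call was lost when control 1, control 2, Rictor-deleted 1 or Rictor-deleted 2 was left out (adjusted p 0.063 to 0.11, in a range from 0.034), without both control arrays together (0.22), and with no filter (0.050), averaged probe sets (0.081) or no trend (0.073). Cdkn1a, the p53 target that encodes the cell cycle inhibitor p21, differed by −0.04 in MLL-AF9 leukemia and by 0.42 in MLL-NRIP3 leukemia (limma adjusted p 0.87 and 0.19). Btg2, an antiproliferative gene, read 149, 150 and 124 against 150, 125 and 143 in MLL-AF9 leukemia, and 56.7, 34.2 and 39.6 against 199, 156 and 50.3 in MLL-NRIP3 leukemia. Its MLL-NRIP3 difference of 1.2 was not called (adjusted p = 0.17) and was 1.71 and called without Rictor-deleted array 3 (0.014, in a range up to 0.45).

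The other named targets, Ccng1, a cyclin, Polk, a polymerase that bypasses lesions, and Aen, a nuclease gene, differed by 0.16, −0.25 and −0.27 in MLL-AF9 leukemia and by 0.11, −0.32 and −0.00 in MLL-NRIP3 leukemia, and none was called.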

How the data were processed

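Total RNA (7 µg per array, per the labels' protocols) of 12 samples was hybridised to Affymetrix arrays. Each deposited value is the linear intensity of a probe set. The authors' summarisation and normalization are not described in the labels. Median intensities of the 6 arrays lay close within each leukemia, though not equal, and apart between the leukemias. Of 45101 probe sets, 34958 had 1 symbol, 932 several and 9211 none. Intensities were used as log2(intensity + 16), and genes under the 40th percentile of mean intensity were left out.

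limma 3.58.1 (R 4.3.3; lmFit, eBayes with trend; 4 residual degrees of freedom per leukemia, 8 for the difference of responses) gave 2-sided tests, adjusted by Benjamini-Hochberg. The fit was also run on simulated data with independent noise for each gene and no shifts of whole arrays. Its outcome is not reported and lends no support to the calls. The fit of the difference of responses treats the replicate spread of both leukemias as equal. The median SDs were 0.076 and 0.062 (log2) in the MLL-AF9 groups and 0.145 and 0.136 in the MLL-NRIP3 groups. Its 8 degrees of freedom may therefore be too many and its p-values too small. Exact permutation of 3 against 3 arrays has a smallest p of 0.1 and was not used. Python 3.11.15, pandas 2.3.3 and matplotlib 3.10.9 made promoter counts and figures.

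Per-array values are given for members called in any comparison and up to 2 further members per role group with the smallest p in either leukemia. They are also given for up to 4 genes of each other list and leukemia. Exo1, the second Atm probe set and the further Chek1, Exo1 and Ercc2 probe sets were chosen after their values were seen. The members and lists were chosen with earlier results of these data known. Replicate numbers did not pair the samples (correlations of deviations −0.13 to 0.06). Alternatives covered pseudocounts, filters, probe set choice, moderation, weights, a replicate block and left-out arrays.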

Additional observations from a re-analysis of the deposited data

Results flagged for a closer look

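Among the repair genes, the wider repair list and the p53 targets, 4 genes were called by limma for the difference between responses (MLL-NRIP3 minus MLL-AF9). Each was read from its brightest probe set. Markers chosen here to describe the sorted cells, such as Kit and Cd34, were called for this difference too. Of the 33 repair genes 6.06% were called, against 4.31% of all genes tested. The log2 difference of responses was 0.67 for Atr, −0.59 for Xpc, 0.94 for Fancb and 0.66 for Plk2. The Atr call ended in 9 of 12 fits that left out 1 array and the Xpc call in 2, whereas those of Fancb and Plk2 held in all 12. None of these 12 fits left out MLL-NRIP3 control arrays 1 and 2 together. Sex and genotype cannot be told apart in the MLL-AF9 part of each difference. Xpc moved the same way in both leukemias, by −0.23 and −0.82, whereas Atr had opposite signs, −0.21 and 0.45, neither called on its own. Fancb and Plk2 differed by 0.08 and 0.05 in MLL-AF9 leukemia and were called higher in MLL-NRIP3 leukemia. Both were dim in MLL-AF9 leukemia, where the log2 scale used understates changes.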

How the results depend on the processing

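The count of 2 repair genes called in MLL-AF9 leukemia became 1 with a pseudocount of 64, with no trend and with the replicate number as a block (Parp1 each time), 1 with averaged probe sets (Atm, neither of the 2), and 0 with all 12 arrays; leaving out single arrays gave 1 to 2. In MLL-NRIP3 leukemia the count of 1 became 7 with array weights, 5 with all 12 arrays and 0 without control arrays 1 and 2 together; leaving out single arrays gave 1 throughout. For the difference of responses the count of 2 became 1 with no filter on dim genes and 6 with array weights, and 0 to 4 without single arrays; the replicate block gave 3. Signs reversed, among genes not called, for Fanca in MLL-AF9 leukemia with averaged probe sets (0.032), Xrcc1 there without control array 1 (0.049, in a range from −0.15), and Pms2 in MLL-NRIP3 leukemia without control array 3 or Rictor-deleted array 2 (−0.031 and −0.027, in a range up to 0.29). The cause of these changes was not tested. With array weights the counts over all 12582 genes, given next, rose as well, so the rises there are not particular to repair genes. With all 12 arrays the MLL-NRIP3 count of 5 was 15.2% of the 33 genes, against 13.7% of all genes. Over all genes, calls in MLL-AF9 leukemia numbered 1039, and 174 with all 12 arrays; in MLL-NRIP3 leukemia 196, and 1724 with all 12 arrays, 2997 with array weights, 83 with averaged probe sets and 25 without control arrays 1 and 2; for the difference 542, and 2522 with array weights. With 3 arrays a group, dim genes and small responses are measured least firmly.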
